A study of Mus musculus with 3 samples.

Results

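The constitutive proteasome genes are the genes for the α ring (Psma), the β ring (Psmb), the ATPases (Psmc) and the other subunits of the regulatory particle (Psmd) of the main protein-degrading machine of the cell. They were taken as every gene in the probe annotation whose symbol starts with Psma, Psmb, Psmc or Psmd, leaving out the immunoproteasome genes Psmb8, Psmb9 and Psmb10, on probe sets annotated to 1 gene. This gave 35 genes of the 17097 on the array, and 30 of them reached the minimum intensity of 64 on at least 1 array, against 2738 of all genes. Expression was measured on 3 oligonucleotide arrays of mesenchymal progenitors (labelled PaS+), a stromal cell type of the bone marrow, from adult C56Bl/6 mice aged 8 weeks. All cells were grown for 7 days in 1% oxygen in MesenCult medium and transduced overnight with a lentiviral vector, and RNA was taken 4 days after transduction. The control array held cells given the shRNA shCTR, the second array cells given shHIF-1a and the third cells given shHIF-2a, which by name target HIF-1α and HIF-2α, the subunits whose stability depends on oxygen in the hypoxia-inducible transcription factors. With 1 array per shRNA and no separate culture or animal named for any of them, no difference could be tested and none carries a p-value.

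The proteasome has a barrel-shaped core particle, made of outer α rings that form a gate and inner β rings whose active sites face the chamber. A regulatory particle caps the barrel. Its base holds a ring of ATPases that unfold the substrate, and its lid removes the ubiquitin chain that marked the substrate for degradation. Because the subunits are built into complexes of fixed composition, their genes are commonly transcribed together, under the transcription factor encoded by Nfe2l1 when proteasome activity falls short. In cells exposed to interferon, Psmb8, Psmb9 and Psmb10 supply active-site subunits that replace the constitutive ones.

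The targeted genes did not bear out the labels fully. Hif1a read 352 in control cells and 332 with either shRNA, and Epas1, which encodes HIF-2α, was dim throughout, reading 5.09 with shCTR, 9.44 with shHIF-1a and 3.21 with shHIF-2a. The arrays are therefore called shHIF-1a-labelled and shHIF-2a-labelled, and each direction below rests on those labels. The highest of 23 nonspecific control probe sets read 3.47. Of 12 mesenchymal progenitor markers 11 were listed, and all of these were above that level on each array, with a summed intensity of 1888 on the control array, 1999.6 with shHIF-1a and 1689 with shHIF-2a. Single markers of this list went in different directions. In the same order Cxcl12 read 250, 178 and 72.3 and Thy1 13.1, 12.4 and 6.72, whereas Cd44 read 500, 539 and 577. Among 10 haematopoietic markers the pan-leukocyte gene Ptprc was at 1.05 on every array and Cd14 alone was bright, at 87.8 to 93.4. The macrophage marker Cd68 was at 1.59 with shCTR, 3.02 with shHIF-1a and 7.24 with shHIF-2a, above the nonspecific level on the last array alone. The summed intensity of the list, most of it from Cd14, was between 101 and 110.2. The 6 endothelial markers summed to 10.7 to 10.8, and both listed erythroid markers stayed under the nonspecific level.

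Measured proteasome genes were slightly brighter on the shHIF-2a-labelled array and no different at the median on the shHIF-1a-labelled array. Against control, 26 of 30 were above 0 on the shHIF-2a-labelled array, 2 below and 2 equal, with a median log2 difference of 0.11, or 108% of the control level. Among all 2738 measured genes 52.7% were above 0, 30.6% below and 16.6% equal, and the median was 0.02. On the shHIF-1a-labelled array 17 of 30 were above 0, 7 below and 6 exactly equal, with a median of 0.01, against 51.7% above 0, 25.7% below, 22.6% equal and a median of 0.01 for all measured genes. In bulk RNA a change in the mix of cells and a change in the RNA of each cell cannot be told apart. Between the shRNA arrays, a comparison that leaves out the shared control, 24 of 30 were brighter on the shHIF-2a-labelled array, 1 was dimmer and 5 were equal, with a median of 0.11, against 44.3% above 0, 32.4% below, 23.3% equal and a median of 0.00 for all measured genes. The medians for the shHIF-2a-labelled array against control and against the shHIF-1a-labelled array stayed above 0 under quantile and cyclic loess scaling. Against control the median also stayed above 0 after median centring. Between the shRNA arrays centring could change nothing, because the median of all measured genes was 0.00. The small median of the shHIF-1a-labelled array turned to −0.02 under quantile scaling and −0.01 under cyclic loess. Under each of these 2 scalings 24 of 31 members were above control on the shHIF-2a-labelled array and 7 below. Of all genes at the minimum, 47.3% were above 0 under quantile scaling and 49.5% under cyclic loess.

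The differences were small and their range narrow. No measured member differed 2-fold in any comparison. On the shHIF-2a-labelled array 1.68% of all measured genes were higher than control by at least that much and 0.84% lower. On the shHIF-1a-labelled array 1.06% were higher and none lower, and 0.511% were higher and 1.17% lower between the shRNA arrays. With shares this low, finding no such gene among 30 members is near the background. Calling a difference of at least 1.2-fold (0.26 on the log2 scale), 4 of 30 members were higher and none was lower on the shHIF-2a-labelled array against control, where 18.3% of all measured genes were higher and 9.39% lower. With 30 members, a count this small does not set their share apart from the background share. On the shHIF-1a-labelled array 1 member was higher and none lower, against 9.86% higher and 1.86% lower. Between the shRNA arrays 2 members were higher on the shHIF-2a-labelled array and none was lower, against 10.8% and 10.6%. From the lower to the upper quartile the members spanned 0.06 to 0.21 on the shHIF-2a-labelled array against control, and all measured genes −0.04 to 0.19. Probe sets of 1 gene disagreed with a pooled SD over 649 genes of 0.21 for this comparison, 0.12 for the shHIF-1a-labelled array against control and 0.14 between the shRNA arrays. Among the 6 proteasome genes with 2 measured probe sets the SD was smaller, at 0.05, 0.06 and 0.07 in the same order. That spread is technical; how far cultures differ was not measured.

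**Figure D1:**
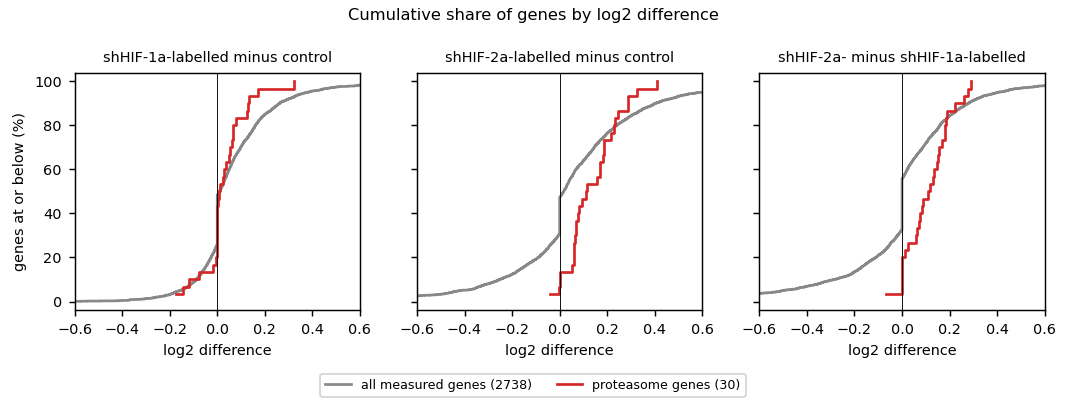
Cumulative share of genes (percent, vertical axis) at or below a log2 difference (horizontal axis, shown from −0.6 to 0.6) for the 30 measured proteasome genes in red and the 2738 measured genes in grey, in the 3 comparisons. In the middle and right panels the red line starts near 0 and runs to the right of the grey line up to about the upper quartile, with medians of 0.11 against 0.02 and 0.11 against 0.00, whereas in the left panel both lines cross 0 at a similar height, with medians of 0.01 and 0.01.

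Technical values also moved with the shHIF-2a-labelled array. The bacterial and phage hybridisation controls that reached 64 (10 probe sets) were dimmer on it, by a median of −0.96 on the log2 scale against control (−1.39 to −0.50), whereas the shHIF-1a-labelled array had a median of 0.05. The background also depended on the minimum: with 16 in place of 64, the median of 6231 genes against control was 0.10 on the shHIF-2a-labelled and 0.07 on the shHIF-1a-labelled array, where that of 32 proteasome genes was 0.11 and 0.01. Between the shRNA arrays the medians at this minimum were 0.00 for all genes and 0.10 for the proteasome genes. A gene can pass a minimum through the array on which it is brighter. With no minimum, the median of 17097 genes against control was 0.00 on both shRNA arrays. The macrophage marker Cd68 was also highest on the shHIF-2a-labelled array, as given above. The part of the hybridisation controls and of Cd68 in the shift of the proteasome genes was not tested.

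The 4 members at least 1.2-fold brighter on the shHIF-2a-labelled array than on the control array were Psma4, Psmc2, Psmc5 and Psmd12. The promoter of each is shown because these are the members with the largest differences, as the 250 bases before the gene's start in RefSeq (build GRCm38.p6), read 5′ to 3′ on the plus strand, which is the gene's strand in all 4. Capitals mark a match to CCGGAAG on either strand, the core sequence bound by ETS-family transcription factors. The stretches lie at chr9:54950609-54950858 (Psma4), chr5:21785025-21785274 (Psmc2, the first-listed start of the gene), chr11:106255935-106256184 (Psmc5) and chr11:107479278-107479527 (Psmd12).
Psma4: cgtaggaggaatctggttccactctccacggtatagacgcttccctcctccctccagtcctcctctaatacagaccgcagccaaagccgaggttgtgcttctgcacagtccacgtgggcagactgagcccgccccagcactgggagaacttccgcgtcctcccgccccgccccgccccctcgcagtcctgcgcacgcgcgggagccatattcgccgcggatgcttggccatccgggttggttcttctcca
Psmc2: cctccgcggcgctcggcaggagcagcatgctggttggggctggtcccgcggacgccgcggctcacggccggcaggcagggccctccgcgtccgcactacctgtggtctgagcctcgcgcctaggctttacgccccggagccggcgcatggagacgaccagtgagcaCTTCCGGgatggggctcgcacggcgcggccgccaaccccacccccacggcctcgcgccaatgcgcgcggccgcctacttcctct
Psmc5: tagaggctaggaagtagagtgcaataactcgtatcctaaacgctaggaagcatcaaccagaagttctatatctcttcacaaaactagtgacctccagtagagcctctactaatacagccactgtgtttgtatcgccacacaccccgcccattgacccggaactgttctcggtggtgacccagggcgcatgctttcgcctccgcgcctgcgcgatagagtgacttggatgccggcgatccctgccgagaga
Psmd12: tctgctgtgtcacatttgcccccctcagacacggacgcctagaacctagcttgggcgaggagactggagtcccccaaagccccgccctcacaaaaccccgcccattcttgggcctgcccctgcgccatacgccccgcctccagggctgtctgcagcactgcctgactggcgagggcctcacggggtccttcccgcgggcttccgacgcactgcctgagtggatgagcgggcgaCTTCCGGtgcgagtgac
The match begins 84 bases before the start in Psmc2 and 17 bases before it in Psmd12, and is on the opposite strand in both. Psma4 and Psmc5 have none in this window.

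A promoter was listed for 25 of the 30 measured members. Of these, 7 held CCGGAAG (28.0%), against 7.05% of the promoters of 27025 genes cut to the same length. All 7 belonged to subunits of the regulatory particle (Psmc1, Psmc2, Psmd2, Psmd4, Psmd6, Psmd11 and Psmd12), of 13 such genes with a promoter, and none to the 11 core particle genes. This split was seen after the sequences were searched. The log2 differences of the 7 genes between the shHIF-2a-labelled and control arrays ran from 0.00 in Psmc1 to 0.29 in Psmd12, and no relation between the motif and expression was tested. The GC box GGGCGG, bound by SP-family factors, was in 14 of 25 (56.0%) against 32.9%, and the hypoxia response element core, searched as ACGTG or GCGTG, was in 13 of 25 (52.0%) against 38.6%. The antioxidant response element core TGANNNNGC, the type of site bound by the Nfe2l1 and Nfe2l2 products, was in 8 of 25 (32%) against 35.1%. For the CCAAT box the counts were 10 of 25 (40.0%) against 34.5%, for the interferon-stimulated response element core (GAAA, any 2 bases, GAAA) 2 of 25 (8.00%) against 3.04%, and for the gamma-activated sequence TTCNNNGAA 0 of 25 against 7.18%. All 7 motifs were searched on both strands, with overlapping matches counted as separate matches. A match describes the letters in the window and no binding. The background shares are over all 27025 genes, expressed here or not, and the shares among measured genes were not computed.

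The α ring forms the gate of the core particle. In the deposited values all 7 of its measured genes were brighter on the shHIF-2a-labelled array than on control, with a median log2 difference of 0.09. Psma5 turned to −0.0059 under quantile scaling and −0.0074 under cyclic loess. Psma4, whose product contributes a tail central to the closed gate, read 209.6 on the control array, 230.1 on the shHIF-1a-labelled array and 263 on the shHIF-2a-labelled array, which is 1.25-fold over control on the last. Psma2 read 305, 319 and 354 in the same order, a log2 difference of 0.22 on the shHIF-2a-labelled array. Psma3 was at 343 and 344 on the control and shHIF-1a-labelled arrays and at 389.8 on the shHIF-2a-labelled array (0.18). In these 3 genes the control array was the dimmest and the shHIF-2a-labelled array the brightest.

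The other α genes moved less. Psma1 was at 119.8, 114 and 128, so that it was dimmer than control on the shHIF-1a-labelled array (−0.08) and brighter on the shHIF-2a-labelled one (0.09). Psma6 was at 243, 242 and 254, and Psma7 at 192, 199 and 201. Psma5 read 90.3 on the control array and exactly the same value, 94.6, on both shRNA arrays. These 4 genes lay between 0.07 and 0.09 above control on the shHIF-2a-labelled array. Psma8, the α subunit gene of germ cells, was under the nonspecific level on all 3 arrays, at 1.35, 1.19 and 1.35.

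Of the β ring, which holds the proteolytic chamber, 6 of 7 measured genes were brighter on the shHIF-2a-labelled array than on control, and the median was 0.08. Psmb5, the chymotrypsin-like subunit, read 162 on the control array, 149.7 on the shHIF-1a-labelled array and 183 on the shHIF-2a-labelled array. It was thus dimmer than control on the shHIF-1a-labelled array by 0.12 and brighter on the shHIF-2a-labelled array by 0.17, and its difference between the shRNA arrays, 0.29 or 1.22-fold, was the highest among the measured members. Psmb7, the trypsin-like subunit, was at 56.7, 63.8 and 66.5, with differences of 0.17 and 0.23 from control. It passed the minimum of 64 only through the shHIF-2a-labelled array. Without it the median of the remaining 29 members was 0.11 on the shHIF-2a-labelled array and 0.01 on the shHIF-1a-labelled array. Psmb6, the caspase-like subunit, was at 179 on the control and shHIF-1a-labelled arrays alike and at 189 on the shHIF-2a-labelled array.

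Among β genes whose products carry no active site, Psmb4 had the highest difference from control on the shHIF-2a-labelled array, at 261, 272 and 294 (0.17). Psmb2 was at 149, 153 and 156. Psmb1 was at 243 on the control array and 242 on both shRNA arrays, the only measured β gene not above control on the shHIF-2a-labelled array. Psmb3 was at 243, 265 and 253, and was the only measured member dimmer on the shHIF-2a-labelled than on the shHIF-1a-labelled array (−0.07). A second Psmb3 probe set, at 166, 176 and 182, put the shHIF-2a-labelled array above the other by 0.05, so the probe sets of this gene disagreed on the order of the shRNA arrays. The thymus-specific Psmb11 was under the nonspecific level on every array.

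The ATPase genes held both ends of the range. Psmc5 read 109 on the control array, 136 on the shHIF-1a-labelled array and 144 on the shHIF-2a-labelled array, and was 1.25-fold and 1.33-fold over control. It was the only measured member past 1.2-fold on the shHIF-1a-labelled array and had the highest difference from control on both shRNA arrays; the gene has 1 listed probe set, so no other probe set could be set beside it. Psmc2 was at 186 and 189 on the control and shHIF-1a-labelled arrays and at 227 on the shHIF-2a-labelled array, 1.22-fold over control. At the other end, Psmc4 was at 137, 121 and 133, with differences of −0.17 and −0.04, the lowest of the measured members on each shRNA array. Its other measured probe set was at 127, 128 and 132, with differences of 0.01 and 0.05, so the direction of Psmc4 depended on the probe set. Psmc3, whose product has a tail that helps to open the gate, was at 146, 144 and 158. Psmc1 was exactly equal on the 3 arrays, at 121.

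Outside the ATPases, the base of the regulatory particle has the scaffold subunits of Psmd1 and Psmd2 and the ubiquitin receptor of Psmd4. All 3 genes were brighter on the shHIF-2a-labelled array, and none differed by more than 0.03 from control on the shHIF-1a-labelled array. Psmd4 was at 234 on the control and shHIF-1a-labelled arrays and at 260.4 on the shHIF-2a-labelled array. Its second measured probe set gave the same order, at 75.0, 77.2 and 86.5. Psmd1 was at 220.2, 225 and 239, and Psmd2 at 169.7 on the first pair of arrays and at 177 on the shHIF-2a-labelled array.

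Over its 7 measured genes the lid had the highest median of the subcomplexes on the shHIF-2a-labelled array, 0.18. Of these genes 6 were above control and 1 was equal. On the shHIF-1a-labelled array the lid median was 0.00. The lid genes Psmd3, just under 64, and Sem1, which has another symbol, were equal on all arrays and are not among the 7. Counting both would put the lid median under those of the base and the ATPases, so the ranking depends on the genes included. Psmd12, a scaffold subunit of the lid, read 93.7, 94.4 and 114, and was 1.22-fold over control and 1.21-fold over the shHIF-1a-labelled array. Psmd14, the deubiquitinase that cuts the chain from the substrate, was at 254 and 255 on the control and shHIF-1a-labelled arrays and at 289.7 on the shHIF-2a-labelled array (0.19). Psmd6 was at 196 on both of the first arrays and at 222 on the shHIF-2a-labelled array (0.18). Its second measured probe set read 151, 158 and 159, with a smaller difference of 0.08 and the shRNA arrays nearly alike. Psmd13 was at 75.0, 79.2 and 87.8 (0.23). By the probe set representing each of these 4 genes, the shHIF-2a-labelled array stood above the other arrays, which differed from each other by at most 0.08. The second probe set of Psmd6 did not show this pattern.

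Psmd8 departed from this order on the shHIF-1a-labelled array, at 286, 259 and 303, with differences from control of −0.14 and 0.08. Psmd11, whose product clamps the lid to the core, was at 107 on the control array and 111 on both shRNA arrays, and its second measured probe set gave differences of 0.06 and 0.04 where the first gave 0.05 and 0.05. Psmd7, the partner of Psmd14, was exactly equal on all arrays, at 83.7. The lid gene Psmd3 was also exactly equal, at 61.7, and so fell just under the minimum of 64, whereas Psmb7, at 66.5 on its brightest array, fell just above it. Psmd5, an assembly chaperone of the ATPase ring that is not part of the finished proteasome, was at 124, 136 and 147, with differences of 0.13 and 0.25. Psmd9, another such chaperone, was at 15.9 on the control array and 18.9 on both shRNA arrays. Psmc3ip, which carries the symbol prefix but encodes a meiotic recombination factor, was at 2.28 on the control array and 5.40 on both shRNA arrays, at least 1.56-fold over the nonspecific level of 3.47. The annotation used here listed no probe set for Psmc6 or Psmd10, so they were not analysed here.

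**Figure D2:**
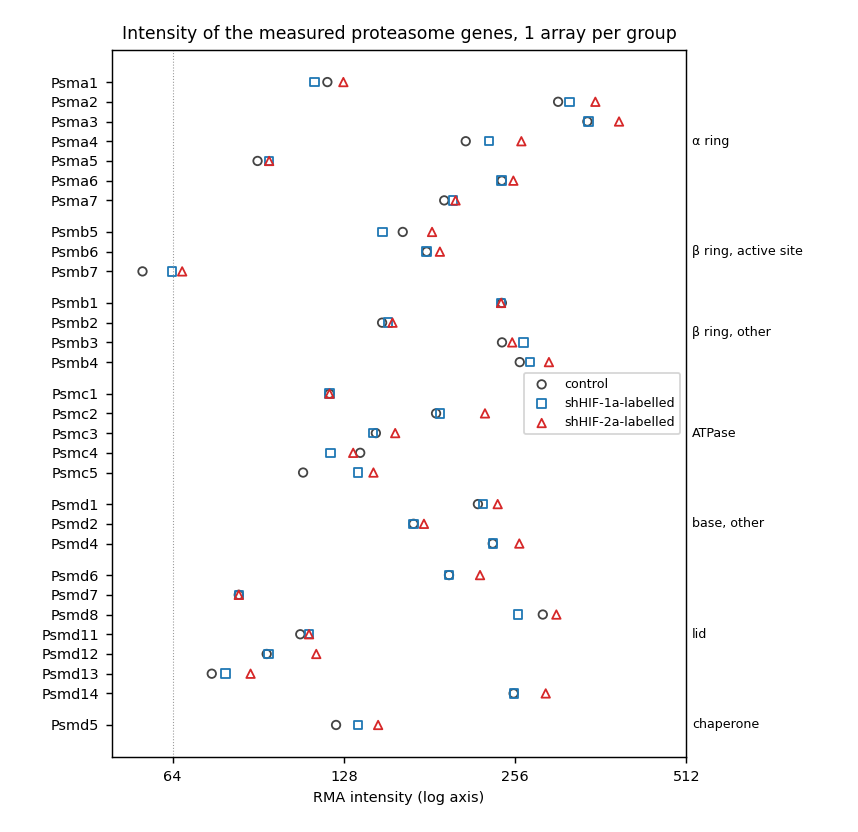
RMA intensity (log axis) of the 30 measured proteasome genes on the control (circles), shHIF-1a-labelled (squares) and shHIF-2a-labelled (triangles) arrays, 1 array each, grouped by place in the complex, with the minimum of 64 dotted. The triangle is the rightmost symbol with no tie in 23 of 30 genes, and symbols coincide where values were equal; intensities of different genes come from different probe sets and cannot be compared with each other.

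**Figure D3:**
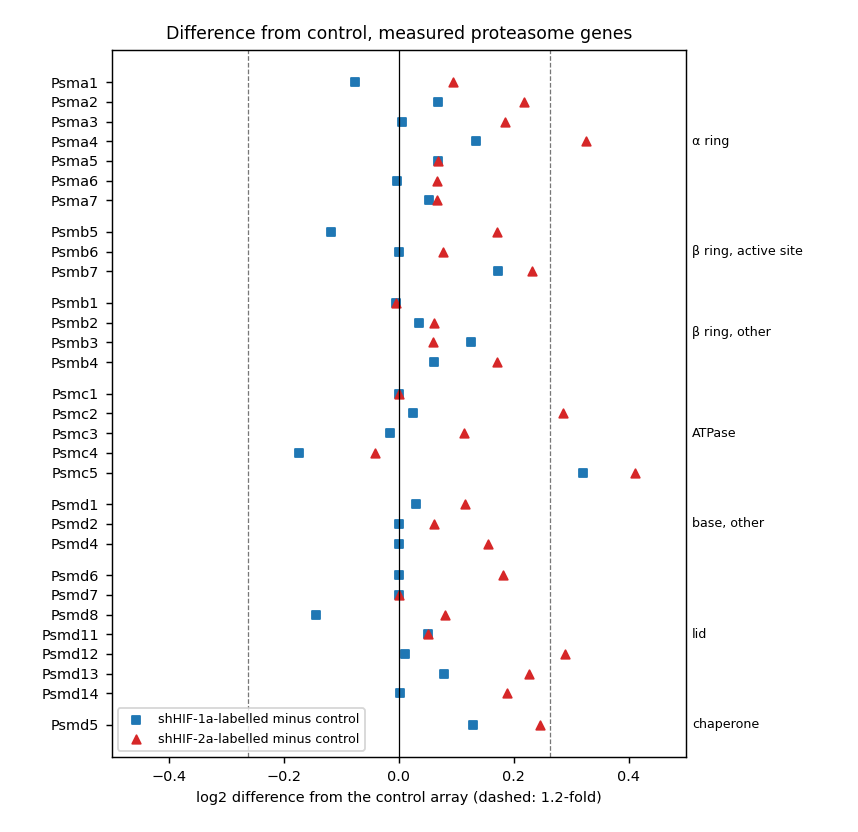
Log2 difference from the control array for each measured proteasome gene on the shHIF-1a-labelled (squares) and shHIF-2a-labelled (triangles) arrays, with 1.2-fold as dashed lines. Squares are scattered around 0, from −0.17 to 0.32, and triangles lie mostly to the right of it, from −0.04 to 0.41.

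Across the members the shHIF-2a-labelled array was the brightest, with no tie, in 23 of 30 genes (76.7%), against 39.8% of all measured genes. The order control, then shHIF-1a-labelled, then shHIF-2a-labelled array held in 14 of 30, against 24.1% of all measured genes. In 5 genes, Psma1, Psma6, Psmb5, Psmc3 and Psmd8, the shHIF-1a-labelled array lay under control and the shHIF-2a-labelled array above it, an order held by 8.73% of all measured genes. The differences from control on both shRNA arrays share the control array, so a high or low control value moves both; the difference between the shRNA arrays does not use it. Psmc5 and Psmb7 show what that leaves: their differences from control on the shHIF-2a-labelled array were 0.41 and 0.23, and those between the shRNA arrays 0.09 and 0.06. For Psmc2, Psmd12 and Psmb5 the difference between the shRNA arrays was 0.26, 0.28 and 0.29. By particle, the core had a median of 0.09 and the regulatory particle one of 0.12 on the shHIF-2a-labelled array against control, over 14 and 15 measured genes, and the corresponding medians between the shRNA arrays were 0.07 and 0.13. The rings of the core differed in the latter comparison, with 0.15 for the α ring and 0.06 for the β ring. The α ring was thus not below the regulatory particle there.

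The genes that assemble, regulate or feed the proteasome were taken from a list of 37, of which 25 were listed on probe sets of 1 gene and 10 were measured. Psmb8, Psmb9 and Psmb10, the immunoproteasome counterparts of Psmb5, Psmb6 and Psmb7, were under 64 on every array but brighter on both shRNA arrays. Psmb9 was at 3.57, 15.0 and 19.3, Psmb8 at 3.61, 9.17 and 19.0, and Psmb10 at 14.0, 24.5 and 26.8, which is 5.41-, 5.27- and 1.91-fold over control on the shHIF-2a-labelled array. With no minimum, 5.28% of 17097 genes were at least 2-fold higher and 0.79% lower there. Psmb8 and Psmb9 were also 2.54- and 4.20-fold over control on the shHIF-1a-labelled array, where 3.09% of genes were at least 2-fold higher and 0.497% lower. The control values of Psmb8 and Psmb9 lay close to the nonspecific level of 3.47, so the size of their folds is uncertain. Each is shown by its brightest probe set, of 2 for Psmb8 and 3 for Psmb9. The probe sets representing the constitutive partners differed from control by at most 0.23 on either shRNA array. Psme1 and Psme2, which encode the interferon-inducible activator that can cap the core in place of the regulatory particle, were measured and also brighter: Psme1 at 83.8, 101.1 and 107, and Psme2 at 84.6, 117 and 120.3, with differences of 0.27 and 0.47 on the shHIF-1a-labelled array and 0.35 and 0.51 on the shHIF-2a-labelled array.

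**Figure D4:**
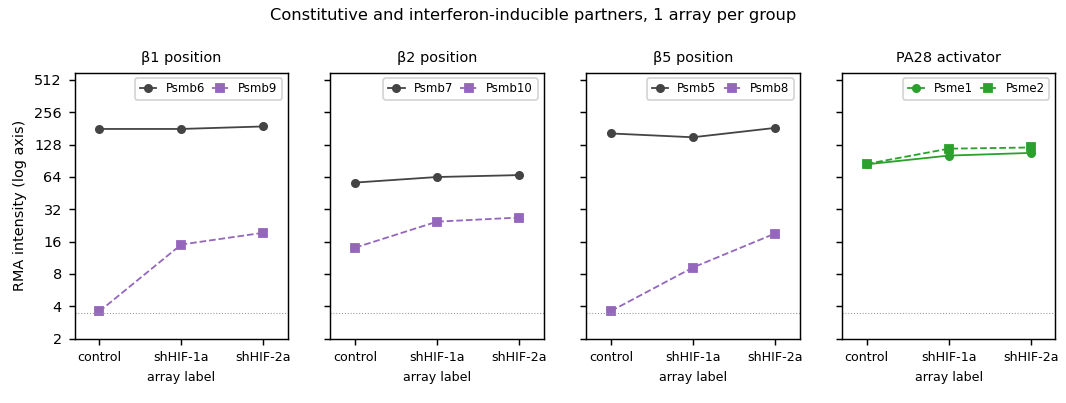
RMA intensity (log axis) on the 3 arrays, 1 array each, for the constitutive active-site genes (black) beside their immunoproteasome counterparts (purple, dashed), and for the activator genes Psme1 and Psme2 (green); the dotted line is the nonspecific level of 3.47. The purple lines climb from the control to the shRNA arrays, for Psmb9 from 3.57 to 19.3, whereas Psmb6 stays between 179 and 189; levels of different probe sets cannot be compared.

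The deubiquitinases that dock on the regulatory particle had larger differences from control than any measured proteasome gene on either shRNA array. Usp14 was at 42.5, 59.8 and 78.3, 1.84-fold over control on the shHIF-2a-labelled array, and counted as measured only through that array. Uchl5 was at 27.1, 35.4 and 59.1, 2.18-fold over control, and stayed under 64. Psmg2, a chaperone of the α ring, was at 36.8, 41.8 and 62.9 (0.77), Psme3, the gene of a nuclear activator of the core, at 27.7, 31.0 and 46.9 (0.76), and Ubqln4, a ubiquitin shuttle, at 15.3, 16.9 and 23.9 (0.64). Without any minimum 15 of the 25 listed genes were at least 1.2-fold higher on the shHIF-2a-labelled array and none lower, against 24.8% and 12.7% of all genes. On the shHIF-1a-labelled array 9 of 25 were higher and none lower, against 21% and 10.5%. Those shares include many genes near the nonspecific level, whereas most unmeasured genes of the list read well above it. With a minimum of 16, 31.7% of 6231 genes were higher on the shHIF-2a-labelled array and 7.03% lower. On the shHIF-1a-labelled array these shares were 24.1% and 1.685%. A background of genes as dim as the unmeasured ones alone was not computed. Of the 10 measured genes, with Usp14 among them, 4 were higher on the shHIF-2a-labelled array, against 18.3% of all measured genes, and 3 on the shHIF-1a-labelled array, against 9.86%.

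The transcription factors of the list were not brighter on the shRNA arrays. Nfe2l1 was at 83.2 on the control array and 78.4 on both shRNA arrays (−0.09). Nfe2l2, which drives the antioxidant response, was at 298 on the control and shHIF-1a-labelled arrays and at 294 on the shHIF-2a-labelled array. Ngly1, whose product processes the Nfe2l1 protein, was at 32.1, 41.3 and 42.3 (0.37 and 0.40). Pomp, the maturation factor of the core, was at 185 on the first pair of arrays and at 190.0 on the third, and Sem1, the smallest lid subunit, was equal on all of them, at 239. The array values concern transcripts, and the activity of the Nfe2l1 protein was not measured.

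**Figure D5:**
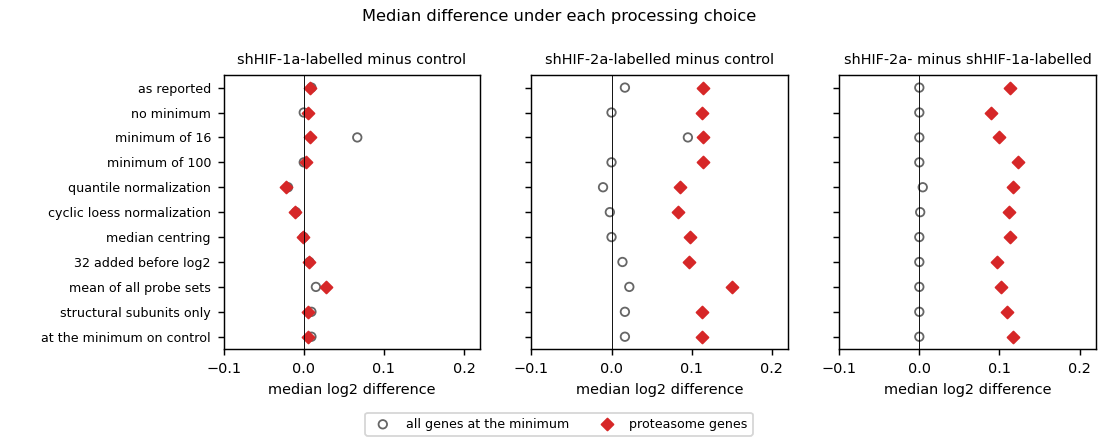
Median log2 difference of the proteasome genes (red) and of all genes at the minimum (open circles) under each processing choice, in the 3 comparisons. For the shHIF-2a-labelled array against control the red points lie between 0.08 and 0.15 under every choice shown, and the open circles at 0.02 or less except with a minimum of 16, where all genes reached 0.10.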

How the data were processed

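Total RNA (1 µg) of each sample was labelled with biotin and hybridised to 1 array. The authors deposited RMA intensities on a linear scale for 45141 probe sets; Per the submitters' processing notes they were made with RMA; no source used here gives its version or settings. RMA over few arrays can give exactly equal values, so small differences may go unrecorded.

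Log2 of the deposited intensities was taken with no further scaling. Of the probe sets, 28898 were annotated to 1 gene, with symbols updated through RefSeq (GRCm38.p6). Each gene was represented by its probe set of highest mean over all arrays, and a gene was called measured at 64 or more on at least 1 array. With 1 array per group, members are described by counts past 1.2-fold and 2-fold and by medians, beside the same over all measured genes. The computation was tested on simulated data. Active-site genes, the 6 highest and 6 lowest members of each comparison and members past 1.2-fold were to be named with their values; of the related genes, those past 1.5-fold and a few fixed ones. The members, lists and motifs were chosen with earlier results of these data known. Quantile and cyclic loess scaling used limma 3.58.1 in R 4.3.3, and the rest Python 3.11.15.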

Additional observations from a re-analysis of the deposited data

How the results depend on the processing

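With 1 array per group no replicate could be left out. No paired analysis was possible because each group has 1 array. The median of the measured proteasome genes ranged from 0.08 to 0.15 for the shHIF-2a-labelled array against control and from 0.09 to 0.12 against the shHIF-1a-labelled array. The median of the shHIF-1a-labelled array against control, 0.01, was −0.0225 under quantile scaling and −0.0110 under cyclic loess. Adding 32 before log2, which shrinks every difference, left 2 members 1.2-fold or more higher on the shHIF-2a-labelled array against control (4 otherwise), 0 between the shRNA arrays (2 otherwise) and 0 on the shHIF-1a-labelled array (1 otherwise). Without a minimum the shHIF-1a-labelled array had 2 members past 1.2-fold higher (21% of all genes), 1 lower (10.5%) and 1 past 2-fold (3.09% higher), and the shHIF-2a-labelled array 5 higher (24.8%), 1 lower (12.7%) and 1 past 2-fold (5.28% higher). Each added call rests on a value not above background: Psmb11, the lower one, was under the nonspecific level on every array, and Psmc3ip, the one past 2-fold, was under it on the control array, with a bound of 1.56-fold. Of the single-gene differences recomputed, all 450 moved by less than the pooled SD between probe sets of all genes. That SD, 0.12 to 0.21, is above the median difference of the members in each comparison, so this check cannot show that directions held. Under cyclic loess the difference from control on the shHIF-2a-labelled array went from 0.0676 to −0.0074 in Psma5 and from 0.0511 to −0.0125 in Psmd11. The exclusion of Psmb7, under 64 on the control array, was chosen after seeing the data. Psma8 also lay under the nonspecific level.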
